A study of Mus musculus with 15 samples.

Results

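Mouse embryonic stem cells without STAG1 were compared directly with cells without STAG2, to describe the expression programs by which loss of one cohesin subunit differs from loss of its counterpart. The libraries compared were those titled as the single knockouts with the control reagent, 6 of the 15 polyA RNA-seq libraries of the series. The 3 Stag1-KO siGLO libraries came from v6.5 cells, a male line, carrying a CRISPR/Cas9 deletion in Stag1 that leaves the reading frame intact. The study detected no STAG1 protein in that clone. The 3 Stag2-KO siGLO libraries came from v6.5 cells carrying a CRISPR/Cas9 deletion within Stag2, which the study does not describe as in-frame. Each knockout was represented by replicates of 1 clone, so the loss of the gene and other properties of the clone cannot be told apart. The 3 WT siGLO libraries from unedited v6.5 cells served to give each difference a direction, and 3 WT siStag1 and 3 Stag2-KO siStag1 libraries, from cells depleted of STAG1 by siRNA, gave a second reading of the Stag2 clone. All cells, wild type included, were grown on gelatin and transfected, with siRNA or with siGLO, a transfection control, at 50 nM, and were collected after 48 h. The labels do not say whether replicates were separate cultures, the study describes them as biological replicates, and the p-values measure the spread between these libraries.

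Cohesin is a ring-shaped complex that holds sister chromatids together and folds the genome into loops. In somatic cells each complex carries either STAG1 or STAG2 as its stromal antigen subunit, which contacts DNA and CTCF. Embryonic stem cells keep pluripotency genes on, hold lineage genes at low levels, and when they leave the naive state pass through a formative state before they form neural tissue, mesoderm or endoderm.

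Totals counted on genes were 18097628 to 19070126 in Stag1-KO, 16030901 to 16962145 in Stag2-KO and 17126806 to 19005726 in WT siGLO. Stag2 normalised counts were 1634, 2452 and 2128 in Stag1-KO and 663, 739 and 675 in Stag2-KO, while Stag1, whose in-frame deletion leaves a transcript to count, was at 1826, 2368 and 1875 in Stag1-KO and 1875, 2204 and 1936 in Stag2-KO and does not check the label. The summed counts of 8 embryonic stem cell markers were 89372 to 103459 in Stag1-KO, 84323 to 102432 in Stag2-KO and 107414 to 112231 in WT siGLO (exact permutation test of the knockouts, two-sided, p = 0.5). Of 9 fibroblast markers 2 had at most 3 counts in every library, and the sums, 541 to 694 and 372 to 713, overlapped (exact permutation p = 0.5). Of 4 blood cell markers listed 2 had at most 3 counts, and the sums were 4.87 to 19.7 in Stag1-KO and 26.9 to 49.7 in Stag2-KO, mostly Cd3e (exact permutation p = 0.1, the smallest that 3 against 3 libraries allow).

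Of 14508 genes tested, 3722 (25.7%) differed between the knockouts by edgeR's quasi-likelihood test at a Benjamini-Hochberg adjusted p below 0.1. Higher in Stag1-KO were 1844 genes (12.7%) and higher in Stag2-KO 1878 (12.9%), so that the counts were close to even. By a log2 fold change of more than 2, 67 genes were higher in Stag1-KO and 216 in Stag2-KO. These counts include genes that passed the expression filter only through the knockout where they were higher. Wnt3a is such a gene among the 67 and En1 among the 216, so both counts are a description. The median size of a called difference was 0.61 on the log2 scale, against 0.24 over all genes tested. The replicates did not overlap at 3253 of the called genes, where 4497 of all genes tested (31.0%) did not overlap. Libraries with the same replicate number deviated from their group means together, and a fit with that number as a block called 5416 genes (37.3%), among them all 3722. It called 18.1% of genes higher in Stag1-KO and 19.2% higher in Stag2-KO, the shares against which counts with the block are read. Its counts for a list are given only where they differ by over 1.5 times. Below, higher and lower are used of genes that passed this test, and a list of genes is read against the 25.7% called among all genes.

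Most differences could be placed by the wild-type libraries. Among the 1844 genes higher in Stag1-KO, 865 (46.9%) fell in Stag2-KO against WT siGLO and 654 (35.5%) rose in Stag1-KO. A further 413 (22.4%) of them passed neither test against wild type, and 109 moved in the same direction in both knockouts but unequally. Among the 1878 genes higher in Stag2-KO, 916 (48.8%) rose in Stag2-KO and 489 (26.0%) fell in Stag1-KO, with 516 (27.5%) called in neither and 141 moved the same way in both. Both comparisons with wild type share the WT siGLO libraries, and they called 20.0% of genes tested in Stag1-KO and 28.3% in Stag2-KO. Changes in Stag2-KO thus accompanied the larger share of the direct calls on either side.

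The genes furthest above Stag2-KO in the Stag1-KO cells included several keratin genes. Krt7, a keratin of simple epithelia and trophoblast, had normalised counts of 554, 530.5 and 372 in Stag1-KO and 70.9, 44.2 and 43.3 in Stag2-KO, with 60.8, 121 and 89.0 in wild type (log2 fold change 3.20, SE 0.26, adjusted p = 1.46e-06). Every Stag1-KO library stood above every Stag2-KO and WT siGLO library, and the Stag2-KO libraries lay near or below wild type. Krt19 was 5.36-fold higher and Krt17 5.33-fold higher in Stag1-KO, the latter with 861, 678 and 539 in Stag1-KO and 159, 109.9 and 120.4 in Stag2-KO against 398, 434 and 295 in WT siGLO. Wnt7b, a WNT ligand, was at 684, 665 and 418 in Stag1-KO and 92.0, 64.7 and 27.4 in Stag2-KO (9.57-fold, adjusted p = 9.25e-05).

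A second set among these genes lay on the X chromosome. The homeobox genes Rhox6 and Rhox9, which are neighbours in a cluster expressed in placenta and germ line, had counts of 386, 341 and 388 in Stag1-KO and 55.0, 46.3 and 43.3 in Stag2-KO for Rhox6 and 173, 189 and 247 in Stag1-KO and 39.1, 36.6 and 35.9 in Stag2-KO for Rhox9. Wild-type counts were 43.0, 62.0 and 48.4 and 38.3, 55.9 and 31.0, so the Stag2-KO libraries overlapped wild type at both genes and only the Stag1-KO libraries stood apart from it in this comparison. Rhox5, the founding member of the cluster, was also higher in Stag1-KO (4.47-fold, adjusted p = 0.000364), at 897, 663 and 891 in Stag1-KO and 328, 114 and 106 in Stag2-KO. Here wild type was at 634, 744 and 669.8, around the lowest Stag1-KO library, and the Stag2-KO libraries were low. Without Stag2-KO replicate 1 the Rhox5 difference was 7.43-fold. Bgn, the matrix proteoglycan biglycan, was 6.00-fold higher, the uncharacterised genes AU015836 and 3830417A13Rik 7.18-fold and 5.60-fold higher, the last 10.4-fold without Stag2-KO replicate 1. Off the X chromosome, the septin gene Sept4 and the actin-associated Synpo2l were 6.62-fold and 6.61-fold higher in Stag1-KO.

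The genes furthest above Stag1-KO in the Stag2-KO cells included the growth factor genes Fgf8, Wnt8a and Fgf5. Fgf8, a growth factor of the primitive streak and brain organisers, had counts of 3.94, 15.6 and 27.1 in Stag1-KO and 38.1, 525 and 339 in Stag2-KO, with 13.1, 16.3 and 9.68 in wild type (log2 fold change -4.24, SE 0.87, adjusted p = 0.00308). Its Stag2-KO replicates differed by more than an order of magnitude, and the fold of 18.9-fold became 11.9 without Stag2-KO replicate 2 and 30.3 without Stag1-KO replicate 3. Wnt8a rested more heavily on 1 library, with 42.3, 361 and 33.8 in Stag2-KO and 11.8, 8.76 and 14.5 in Stag1-KO, so that its 12.3-fold difference fell to 3.22-fold without Stag2-KO replicate 2 (adjusted p = 0.0358). Fgf5, the classical marker of primed epiblast, was steadier at 9.84, 8.76 and 6.33 in Stag1-KO and 42.3, 134 and 104 in Stag2-KO (log2 fold change -3.48, SE 0.39, adjusted p = 2.54e-05).

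Several of the other genes encode transcription factors. Sox1, the earliest neural plate SOX factor, stood at 57.1, 35.0 and 83.2 in Stag1-KO and 248, 655 and 1067 in Stag2-KO and at 542, 361 and 417 in wild type, so the gap of 11.2-fold opened by a fall in Stag1-KO (log2 fold change -2.90, adjusted p = 0.004) while Stag2-KO did not pass the test against wild type (adjusted p = 0.465). Meis2, a TALE homeobox cofactor of HOX proteins, was at 13.8, 7.79 and 18.1 in Stag1-KO and 67.7, 345 and 276 in Stag2-KO (17.1-fold, adjusted p = 7.85e-05). En1, a midbrain homeobox gene, passed the expression filter only through the libraries of the Stag2 clone, and its counts of 16.7, 2.92 and 5.42 in Stag1-KO and 31.7, 170.3 and 91.8 in Stag2-KO are given as a description. Zfhx4 and Sp8, both neural zinc finger genes, were 9.43-fold and 8.97-fold higher, and Ptn, the heparin-binding factor pleiotrophin, 8.91-fold higher. Lef1, a transcription factor at the end of the WNT pathway, had 173, 96.4 and 148 in Stag1-KO and 1144, 789.9 and 835 in Stag2-KO and 264, 133 and 208 in wild type (6.62-fold, adjusted p = 1.18e-05). Mest and Skida1, the other two of the 12, are given with the genes moved in opposite directions. Stag2-KO replicate 1 was the lowest of its group at 10 of these 12 genes, the exceptions being Wnt8a and Lef1.

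**Figure D1:**
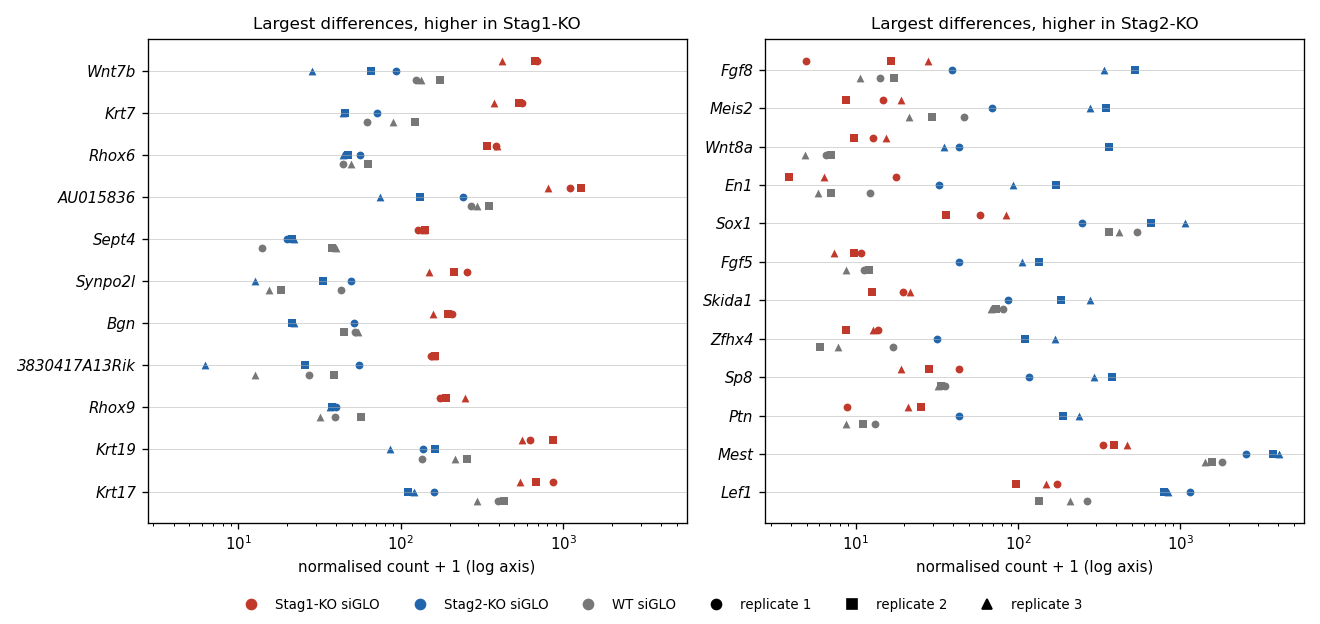
Normalised counts plus 1 (log axis) of genes among the 12 with the largest difference in each direction, each point a library of Stag1-KO siGLO, Stag2-KO siGLO or WT siGLO and each shape a replicate number. In the left panel the Stag1-KO points lie to the right of all others, and in the right panel Stag2-KO replicate 1 lies nearest to the Stag1-KO points at most genes, as for Fgf8 at 38.1 against 525 and 339.

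Trophoblast genes were mostly higher in Stag1-KO. Of 12 trophoblast genes tested, 9 were higher in Stag1-KO, none in Stag2-KO and 3 were not called (75.0% called, median log2 fold change 1.06, against -0.03 over all genes). Per library, the list's median log2 level relative to the WT siGLO mean was 0.63, 0.43 and 0.25 in Stag1-KO and -0.39, -0.71 and -1.29 in Stag2-KO, so the groups did not overlap and lay on either side of wild type. Krt8 and Krt18, the paired keratins of simple epithelia, had 5256, 5248 and 3008 in Stag1-KO and 1317, 1263 and 638 in Stag2-KO for Krt8 (4.20-fold, adjusted p = 0.000342) and a difference of 3.99-fold for Krt18. Tead4, the TEAD factor that opens the trophoblast programme, was at 636, 683 and 494 in Stag1-KO and 323, 292 and 341 in Stag2-KO and 648, 882 and 873 in wild type, and the placental X-linked homeobox gene Esx1 at 128, 83.7 and 129 in Stag1-KO and 55.0, 39.9 and 39.1 in Stag2-KO and 83.2, 121 and 162. These regulators had fallen in Stag2-KO, whereas the keratins had risen in Stag1-KO. Cdx2, the trophectoderm master regulator, did not pass the test (30.5, 22.4 and 55.1 in Stag1-KO and 24.3, 22.6 and 2.11 in Stag2-KO, adjusted p = 0.225), and Eomes, higher in Stag1-KO by 1.54-fold, lost the call in 4 of the 6 fits that left out a library (adjusted p up to 0.265).

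Of 19 epithelial and mesenchymal genes, 8 were higher in Stag1-KO and 4 in Stag2-KO (63.2% called). Epcam, an epithelial adhesion molecule, was 1.21-fold higher in Stag1-KO, a call lost without Stag1-KO or Stag2-KO replicate 3 (adjusted p up to 0.145). Cdh1, or E-cadherin, was at 11663, 12019 and 10540 in Stag1-KO and 10431, 8630 and 7734 in Stag2-KO and not called (adjusted p = 0.119, and 0.0304 with the block). Genes of mesenchymal cells were among the 4 higher in Stag2-KO. Cdh2, or N-cadherin, was at 104, 99.3 and 109 in Stag1-KO and 205, 375 and 350.5 in Stag2-KO (2.97-fold, adjusted p = 0.000444), the intermediate filament gene Vim at 1894, 1186 and 1208 in Stag1-KO and 4863, 5102 and 4416 in Stag2-KO (3.35-fold, adjusted p = 4.58e-06), and Zeb2, a repressor of epithelial genes, at 35.4, 25.3 and 33.5 in Stag1-KO and 80.4, 211 and 253 in Stag2-KO (5.76-fold, adjusted p = 0.00141).

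Of 47 collagens, laminins and basement membrane genes, 14 were higher in Stag1-KO and 3 in Stag2-KO (36.2% called, median 0.26, and the 3 were 6 with the block). Col14a1 among the 3 passed the expression filter only through the Stag2 clone. The 45 members that passed through other libraries had a median of 0.30. The count of 3 was 6 without Stag2-KO replicate 1 and 1 without Stag2-KO replicate 2 or either of Stag1-KO replicates 2 and 3. Lama5, the laminin chain of epithelial basement membranes, had 12924, 12924 and 10618 in Stag1-KO and 7187, 7321 and 6790 in Stag2-KO (1.71-fold, adjusted p = 2.53e-05), and Nid1, which links laminin to collagen IV, 5156, 4713 and 4223 in Stag1-KO and 2623, 1928 and 2165 in Stag2-KO (2.10-fold, adjusted p = 2.38e-05). Hspg2, or perlecan, was 1.85-fold higher in Stag1-KO. The first members of the list, Col1a1 and Col1a2, which fibroblasts express, were not called (adjusted p = 0.459 and 0.805). Without Stag2-KO replicate 1, Col1a1 moved from 1.32-fold to 2.02-fold, higher in Stag1-KO, and was called (adjusted p = 0.0308).

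Contractile and serum response genes were likewise higher in Stag1-KO. Of 24 targets of SRF and of YAP with TEAD, 12 were higher in Stag1-KO, none in Stag2-KO and 12 were not called (50.0% called, median 0.61). With the block 1 member was higher in Stag2-KO. The list's median level relative to wild type was 0.78, 0.62 and 0.43 in Stag1-KO and 0.31, 0.34 and 0.12 in Stag2-KO, above the WT siGLO mean in all 6 libraries. Acta1, skeletal muscle alpha-actin, is shown with its promoter because it carries the sequence elements of both factors, and Cyr61 (Ccn1), a YAP target that encodes a secreted matrix protein, because it carries the TEAD element alone. The sequences are the 250 bases before the RefSeq transcription start on GRCm38.p6, for Acta1 at chr8:123894776-123895025 on the minus strand and for Cyr61 at chr3:145649986-145650235 on the minus strand, with the SRF element (CArG box) CCAAATATGG and the TEAD element CATTCC in capitals.
Acta1 promoter: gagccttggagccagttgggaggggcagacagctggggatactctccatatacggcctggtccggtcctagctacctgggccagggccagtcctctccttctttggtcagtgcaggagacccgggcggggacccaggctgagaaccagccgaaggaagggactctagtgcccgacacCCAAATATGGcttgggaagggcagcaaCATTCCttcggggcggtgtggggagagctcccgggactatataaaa
Cyr61 promoter: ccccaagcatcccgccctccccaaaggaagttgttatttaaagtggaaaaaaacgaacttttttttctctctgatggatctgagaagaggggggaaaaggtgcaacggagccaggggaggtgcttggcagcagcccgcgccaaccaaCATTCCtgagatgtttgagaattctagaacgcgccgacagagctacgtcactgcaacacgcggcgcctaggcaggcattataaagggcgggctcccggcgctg

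Both strands were searched for the CArG box, and it lies 73 to 64 bases before the start of Acta1, where the TEAD element lies 46 to 41 bases before it. In Cyr61 the TEAD element lies 103 to 98 bases before the start. Of the 24 list members 20 had a promoter in the RefSeq table, and 7 of these held a CArG box against 1.47% of 32851 promoters of this length. Since the list was drawn up from SRF targets, that share describes the list. Of the 7, 6 were higher in Stag1-KO (Acta1, Actg1, Cnn2, Myl9, Vcl and Fhl2) and Srf was not called. The TEAD element was in 10 of 20, against 12.6% of all promoters, in a list likewise drawn up from YAP and TEAD targets. Of the 10, 6 were higher in Stag1-KO (Acta1, Tagln2, Tpm1, Vcl, Cyr61 and Amotl2) and 4 were not called (Acta2, Flna, Ankrd1 and Ajuba). Acta1 had 506, 517 and 419 in Stag1-KO and 128, 136 and 82.3 in Stag2-KO, and 31.8, 62.0 and 62.9 in wild type (log2 fold change 2.06, SE 0.40, adjusted p = 0.00226). Myl9, a regulatory myosin light chain, was at 401, 377 and 381 in Stag1-KO and 103, 186 and 188 in Stag2-KO with 69.2, 67.1 and 44.5 in wild type, and the calponin gene Cnn2 at 3813, 3862 and 2881 in Stag1-KO and 1679, 2348 and 1647 in Stag2-KO with 1069, 1249 and 1099. In these genes both knockouts rose, and Stag1-KO rose further. Cyr61 was at 1277, 1042 and 1022 in Stag1-KO and 607, 575 and 428 in Stag2-KO, around wild-type counts of 886, 997 and 716 (2.07-fold, adjusted p = 0.000443), and Lats2, a kinase that restrains YAP, 2.33-fold higher in Stag1-KO. Acta2, smooth muscle alpha-actin, had 800.2, 562 and 714 in Stag1-KO and 1338, 288 and 178 in Stag2-KO and was not called, with Stag2-KO replicate 1 the highest of the 6 libraries.

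Sterol synthesis genes were called mostly lower in Stag2-KO than in Stag1-KO. Of 29 sterol and fatty acid synthesis genes, 17 were higher in Stag1-KO and 1 in Stag2-KO (62.1% called, median 0.43). The count of 17 was 11 without Stag1-KO replicate 2. The list's median level relative to wild type was -0.28, 0.05 and 0.01 in Stag1-KO and -0.79, -0.42 and -0.26 in Stag2-KO, with replicate 1 the lowest in both knockouts and in wild type. The groups thus overlapped through Stag1-KO replicate 1, while each Stag2-KO library lay below the Stag1-KO library of its own replicate number. Mvd, the mevalonate diphosphate decarboxylase, had 1532, 1651 and 1585 in Stag1-KO and 675, 865 and 1025 in Stag2-KO, with 1425, 1787 and 1874 in wild type (1.86-fold, adjusted p = 0.000402). Fdps, which makes farnesyl diphosphate, was at 3351, 3378 and 3404 in Stag1-KO and 1955, 2281 and 2437 in Stag2-KO (1.52-fold, adjusted p = 0.000338), and Lss, the lanosterol synthase, was 1.62-fold higher in Stag1-KO. Hmgcs1 (1.39-fold) lost its call without Stag1-KO replicate 2 or Stag2-KO replicate 1 (adjusted p up to 0.136). Its promoter is shown because it was the 1 promoter, of 19 in the list that the table holds, with the sterol element TCACCCCAC (searched on both strands, in 0.496% of all promoters). It lies at chr13:119690101-119690350 on the plus strand of GRCm38.p6, and the element, in capitals, 137 to 129 bases before the start.
Hmgcs1 promoter: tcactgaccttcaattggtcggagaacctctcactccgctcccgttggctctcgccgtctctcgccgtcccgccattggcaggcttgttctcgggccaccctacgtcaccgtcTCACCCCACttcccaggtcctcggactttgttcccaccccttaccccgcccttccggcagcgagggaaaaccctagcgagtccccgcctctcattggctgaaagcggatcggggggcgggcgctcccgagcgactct

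Of 29 glycolysis and hypoxia genes, 7 were higher in Stag1-KO and none in Stag2-KO (24.1% called, median 0.35). The share called in either direction was near that of all genes, of which 12.7% were higher in Stag1-KO. With the block 18 of the 29 were higher in Stag1-KO, against 18.1% of all genes. The list was thus near the share of all genes only without the block. The count of 7 was 3 without Stag1-KO replicate 2 and 4 without Stag1-KO or Stag2-KO replicate 3. Pdk1, a kinase that keeps pyruvate out of mitochondria, was at 6955, 6938 and 6743 in Stag1-KO and 5488, 4368 and 4358 in Stag2-KO (1.45-fold, adjusted p = 0.00104) and the glucose transporter Slc2a1 at 17901, 18901 and 18730 in Stag1-KO and 11077, 14319 and 14206 in Stag2-KO (1.40-fold, adjusted p = 0.0166). Nuclear-encoded respiratory chain genes were also called near the share of all genes, with 2 of 75 higher in Stag1-KO and 15 in Stag2-KO (22.7% called, median -0.15, and 23 in Stag2-KO with the block). The count of 15 was 7 without Stag1-KO replicate 2, 8 without Stag2-KO replicate 1 and 25 without Stag1-KO replicate 3. The count of 2 was 1 without Stag1-KO replicate 1, Stag2-KO replicate 1 or Stag2-KO replicate 3, and 0 without Stag1-KO replicate 2. Atp5b, the beta subunit of ATP synthase, was at 18895, 17513 and 17576 in Stag1-KO and 36264, 32664 and 32928 in Stag2-KO with 34595, 33922 and 34393 in wild type (log2 fold change between the knockouts -0.92, SE 0.07, adjusted p = 6.39e-07), a fall in Stag1-KO.

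**Figure D2:**
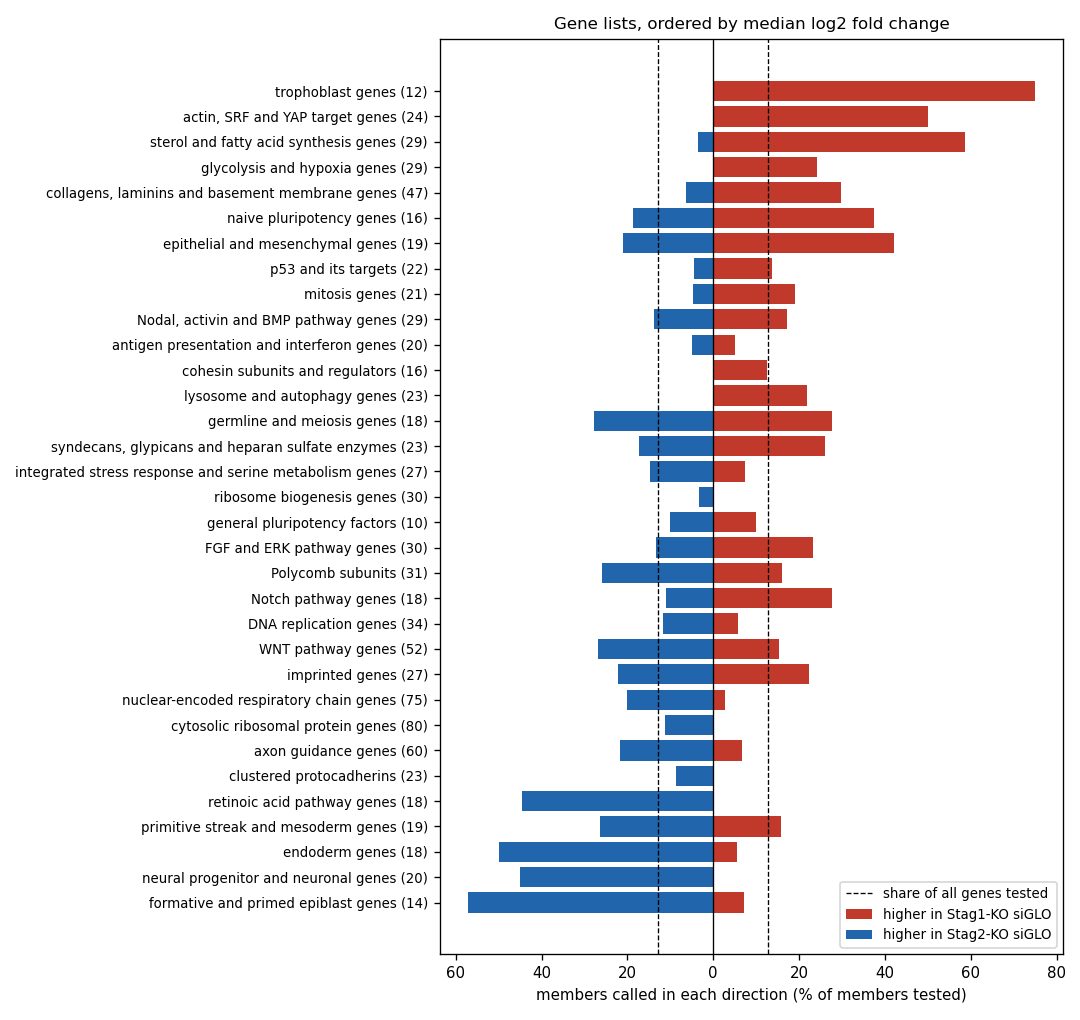
Members of each gene list called higher in Stag1-KO (bars to the right) or in Stag2-KO (bars to the left), as a percentage of the members tested, whose number stands in brackets. Dashed lines mark the share of all genes tested called in each direction. Trophoblast genes (9 of 12), sterol and fatty acid synthesis (17 of 29) and actin, SRF and YAP targets (12 of 24) lie on the Stag1-KO side, and formative and primed epiblast genes (8 of 14) and neural progenitor and neuronal genes (9 of 20) on the Stag2-KO side. Hox genes are left out, since most of them did not pass the expression filter. Calls of members that passed the filter only through the knockout where they were higher are included and are a description. They lie in the neural (Zic1 and Six3), retinoic acid, axon guidance, WNT, primitive streak, and collagen and basement membrane bars.

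Genes of the formative and primed epiblast were higher in Stag2-KO. Of 14, 8 were higher in Stag2-KO and 1 in Stag1-KO (64.3% called, median -0.68). The list's median level relative to wild type was 1.46, 1.33 and 1.20 in Stag2-KO, against 0.20, -0.09 and -0.15 in Stag1-KO. Zic2, a zinc finger factor of epiblast enhancers, had 452, 302 and 359.8 in Stag1-KO and 1639, 2713 and 2539 in Stag2-KO and 642, 391 and 454 in wild type (log2 fold change -2.63, SE 0.24, adjusted p = 5.26e-06). Sall2 was at 255, 178 and 179 in Stag1-KO and 660.2, 1139 and 1234 in Stag2-KO (4.96-fold, adjusted p = 9.62e-06), and the kinase gene Pim2 at 703, 672 and 829 in Stag1-KO and 2801, 5912 and 3937 in Stag2-KO (5.74-fold, adjusted p = 5.72e-06). With Fgf5 and Lef1, all of these rose in Stag2-KO, while none of them passed the test in Stag1-KO against wild type. The list did not move as a whole, since Pou3f1, a POU factor of the same state, was at 1419, 990.0 and 939 in Stag1-KO and 1583, 967 and 835 in Stag2-KO with 382, 341 and 329 in wild type, a rise in both knockouts that was not called between them (adjusted p = 0.974). Otx2, the factor that directs formative enhancers, was at 456, 374 and 322 in Stag1-KO and 522, 519 and 509.9 in Stag2-KO and was not called (adjusted p = 0.11, and 0.0273 with the block).

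Naive pluripotency genes were divided. Of 16, 6 were higher in Stag1-KO and 3 in Stag2-KO (56.2% called, median 0.21), and the list's median level was below the WT siGLO mean in all 6 knockout libraries (-0.18 to -0.51 in Stag1-KO and -0.35 to -0.74 in Stag2-KO). Esrrb, an orphan nuclear receptor that sustains the naive state, had 10693, 9009 and 9065 in Stag1-KO and 6271, 6042 and 7325 in Stag2-KO with 12416, 11028 and 11373 in wild type (log2 fold change 0.55, SE 0.14, adjusted p = 0.012), and Tfcp2l1 was at 5833, 6268 and 5046 in Stag1-KO and 2806, 4697 and 4228 in Stag2-KO with 7612, 7546 and 8062 (1.46-fold, adjusted p = 0.0104). Dppa3, a maternal factor that protects methylation, was 1.84-fold higher in Stag1-KO after a rise in both knockouts. Tbx3 was the reverse, at 437, 352 and 417 in Stag1-KO and 824, 869.6 and 956 in Stag2-KO with 2179, 2010 and 2239 in wild type, a fall in both knockouts that was deeper in Stag1-KO (log2 fold change -1.14, SE 0.13, adjusted p = 3.04e-05). Klf2 and Nr5a2 were 1.55-fold and 1.46-fold higher in Stag2-KO. Klf4 and Klf5 were higher in Stag1-KO, each losing its call in 4 of 6 fits without a library (adjusted p up to 0.247 and 0.150).

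The general pluripotency factors differed little. Of 10, 1 was higher in each knockout (20.0% called), and 4 were higher in Stag2-KO with the block. Nanog was at 3697, 3569 and 4696 in Stag1-KO and 2540, 4913 and 4885 in Stag2-KO, with overlapping groups, and was not called (adjusted p = 0.945). Pou5f1, which encodes OCT4, was 1.27-fold higher in Stag2-KO (adjusted p = 0.0778) and lost the call in 3 of 6 fits without a library (adjusted p up to 0.335). Sox2 was 1.23-fold higher in Stag1-KO (adjusted p = 0.021, and 0.1001 without Stag2-KO replicate 2).

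Neural genes were higher in Stag2-KO in every call. Of 20 neural progenitor and neuronal genes, 9 were higher in Stag2-KO, none in Stag1-KO and 11 were not called (45.0% called, median -0.67). With the block or without Stag2-KO replicate 3, 2 members were called higher in Stag1-KO, and without Stag1-KO replicate 1, 1 was. Of the 9, Zic1 and Six3 passed the expression filter only through the libraries of the Stag2 clone, and 7 of the 16 members that passed through other libraries were higher in Stag2-KO (median -0.52). Per library the median level of these 16 relative to wild type was -0.33, 0.48 and 1.08 in Stag2-KO and -0.02, -0.20 and -0.05 in Stag1-KO, so the groups overlapped through Stag2-KO replicate 1. Pax6, the eye and forebrain factor, had 67.9, 59.4 and 95.8 in Stag1-KO and 240.2, 312 and 455 in Stag2-KO with 74.8, 37.6 and 40.6 in wild type (log2 fold change -2.17, SE 0.31, adjusted p = 0.000205). Sox3 was at 122, 65.2 and 82.3 in Stag1-KO and 324, 393 and 479 in Stag2-KO (4.44-fold, adjusted p = 6.67e-06) and Irx3 at 9.84, 13.6 and 19.9 in Stag1-KO and 33.9, 122 and 113 in Stag2-KO (6.12-fold, adjusted p = 0.000931). Nes, the progenitor filament nestin, was 1.60-fold higher in Stag2-KO and lost the call without Stag2-KO replicate 2 (adjusted p = 0.145). In these bulk libraries a larger share of cells expressing a neural gene and more RNA per cell cannot be told apart, as for every gene here.

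Hox genes were measured at very low levels, and 16 of the 39 listed passed the expression filter. Of these, 10 were higher in Stag2-KO and 6 were not called. A member with almost no counts in Stag1-KO could pass the filter only through another group, so this count is not read against the share of all genes. Such members were 7 of the 10, and other lists held 1 or 2 of them among their calls (neural, retinoic acid, axon guidance, WNT, primitive streak, and collagen and basement membrane genes). Hoxa2, Hoxa3 and Hoxb2 are among the 7, so their counts are a description. Hoxa3 had 1.97, 3.89 and 6.33 in Stag1-KO and 18.0, 39.9 and 50.7 in Stag2-KO with 2.81, 2.03 and 3.87 in wild type. Hoxa2 had at most 3 counts per library in Stag1-KO and 7.41, 26.9 and 43.3 normalised counts in Stag2-KO. Hoxb2, named here after its values were seen, stood at 3.94, 0 and 0.904 in Stag1-KO and 11.6, 67.9 and 65.5 in Stag2-KO. Stag2-KO replicate 1 was the lowest of its group at these 3 genes.

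Genes of retinoic acid signalling, which acts on Hox genes during development, were higher in Stag2-KO at 8 of 18 members and in Stag1-KO at none (44.4% called, median -0.47). The count of 8 was 4 without Stag1-KO replicate 2 or Stag2-KO replicate 3, and 5 without Stag1-KO replicate 1. Of the 8, Rarb and Cyp26b1 passed the filter only through the Stag2 clone, and 6 of the 16 members that passed through other libraries were higher in Stag2-KO (median -0.40). Crabp2, which carries retinoic acid to its receptors, was at 105, 98.3 and 135 in Stag1-KO and 172, 311 and 388 in Stag2-KO with 94.4, 66.1 and 93.9 in wild type (2.57-fold, adjusted p = 0.00644). Of the receptors, Rarg was not called (adjusted p = 0.439) and Rara, 1.41-fold higher in Stag2-KO, lost its call in 4 of 6 fits without a library (adjusted p up to 0.290). Rxrg, named after its values were seen, was at 17.7, 12.7 and 9.04 in Stag1-KO and 51.8, 49.6 and 35.9 in Stag2-KO with 19.6, 17.3 and 10.7 in wild type (3.48-fold, adjusted p = 0.00569) and kept its call in all 6 fits. Rarb was at 2.95, 0 and 3.62 in Stag1-KO and 6.35, 21.6 and 9.50 in Stag2-KO, given as a description.

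**Figure D3:**
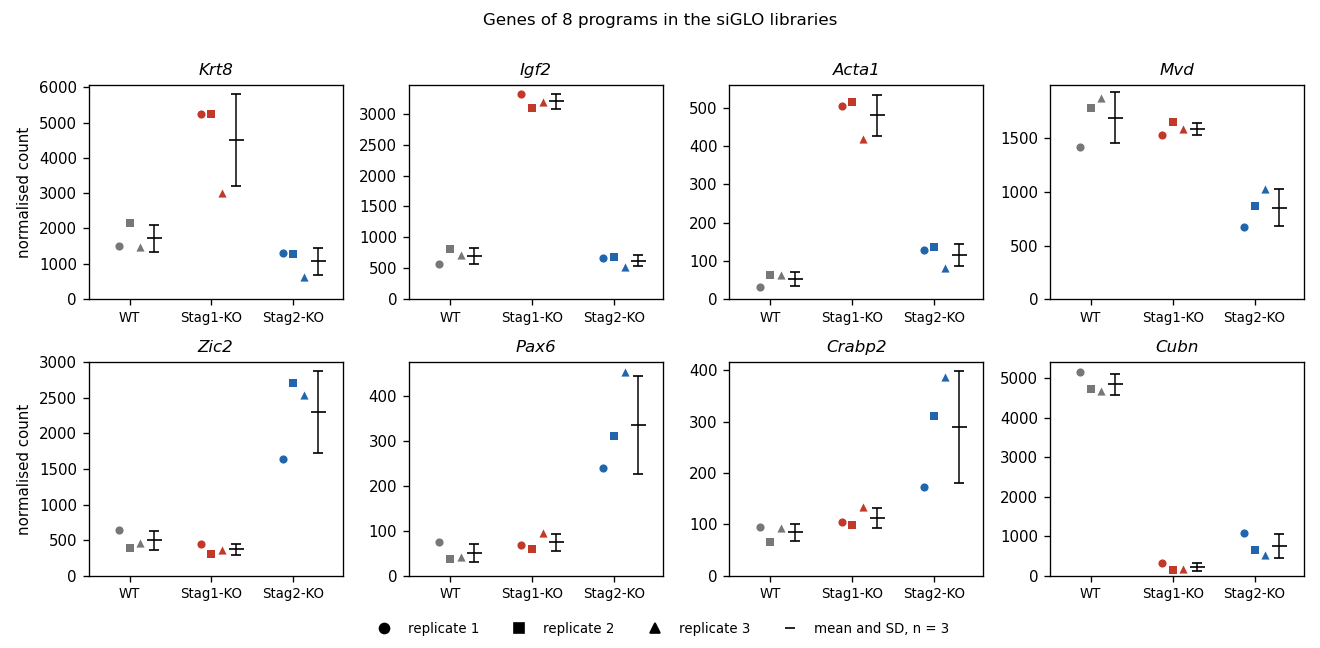
Normalised counts by library for 1 member of each of 8 programs (Krt8, Igf2, Acta1, Mvd, Zic2, Pax6, Crabp2 and Cubn), with Stag1-KO siGLO, Stag2-KO siGLO and WT siGLO side by side, each point a library, each shape a replicate number and each bar the mean with its SD. Krt8, Igf2 and Acta1 stand highest in Stag1-KO, Zic2, Pax6 and Crabp2 stand highest in Stag2-KO, Mvd is lowest in Stag2-KO, and Cubn lies far below wild type in both knockouts.

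WNT pathway genes were called in both directions. Of 52, 8 were higher in Stag1-KO and 14 in Stag2-KO (42.3% called, median -0.12). Wnt3a among the 8 passed the expression filter only through Stag1-KO, and Rspo3 among the 14 only through the Stag2 clone. The 50 members that passed through other libraries also had a median of -0.12. The count of 8 was 4 without Stag1-KO replicate 2 and 5 without Stag1-KO replicate 1 or Stag2-KO replicate 3, and the count of 14 was 8 without Stag2-KO replicate 2. Among ligands, Wnt7b was higher in Stag1-KO and Wnt8a in Stag2-KO, as given above, and Wnt3, an inducer of the primitive streak, was at 42.3, 47.7 and 33.5 in Stag1-KO and 38.1, 180.0 and 47.5 in Stag2-KO and not called (adjusted p = 0.103, and 0.0549 with the block). Without Stag2-KO replicate 2 the 2.15-fold difference of Wnt3 was 1.04-fold (adjusted p = 0.931). Among receptors, Fzd10 was at 209.6, 166 and 193 in Stag1-KO and 314, 789 and 473 in Stag2-KO (2.77-fold, adjusted p = 0.000856) and Fzd8 at 109, 70.1 and 86.8 in Stag1-KO and 138, 236 and 214 in Stag2-KO (2.21-fold, adjusted p = 0.00212), both higher in Stag2-KO. Among targets, Axin2, a feedback inhibitor named after its values were seen, was at 387, 276 and 264 in Stag1-KO and 445, 647 and 423 in Stag2-KO with 391, 339 and 358 in wild type (1.64-fold, adjusted p = 0.00813), higher in Stag2-KO and called in all 6 fits without a library. Sp5 was at 41.3, 49.6 and 44.3 in Stag1-KO and 56.1, 226 and 67.6 in Stag2-KO, a 2.58-fold difference (adjusted p = 0.0662) that was 1.37-fold without Stag2-KO replicate 2 (adjusted p = 0.538) and lost its call in 4 of 6 fits without a library. The Sp5 promoter is shown as the direct target with the TCF/LEF element CTTTGAT (both strands searched, in 3 of 35 list promoters and 3.21% of all), at chr2:70474673-70474922 on the plus strand of GRCm38.p6, with the element, in capitals, 104 to 98 bases before the start.
Sp5 promoter: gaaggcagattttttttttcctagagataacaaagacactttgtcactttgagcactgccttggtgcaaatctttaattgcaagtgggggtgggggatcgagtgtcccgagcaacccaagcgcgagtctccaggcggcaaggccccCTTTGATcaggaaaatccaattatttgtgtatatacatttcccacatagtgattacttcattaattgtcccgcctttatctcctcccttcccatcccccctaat

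Primitive streak and mesoderm genes were called in both directions. Of 19, 3 were higher in Stag1-KO and 5 in Stag2-KO (42.1% called, median -0.50). Wnt3a among the 3 passed the expression filter only through Stag1-KO, and Nkx1-2 among the 5 only through the Stag2 clone. The 16 members that passed through other libraries had a median of -0.35. Per library, the median level of these 16 relative to wild type was 0.66, 0.30 and 0.67 in Stag1-KO. In Stag2-KO it was 0.22, 0.81 and 0.0145. The groups thus overlapped, and in 2 of 3 same-numbered pairs the Stag1-KO library was the higher. T, the mesoderm factor brachyury, was at 16.7, 15.6 and 29.8 in Stag1-KO and 80.4, 268 and 35.9 in Stag2-KO with 9.35, 11.2 and 6.78 in wild type, 6.12-fold higher in Stag2-KO and 2.78-fold without Stag2-KO replicate 2 (adjusted p = 0.0319). Stag2-KO replicate 2 was the highest of the 6 libraries for T, Wnt8a, Wnt3, Sp5 and Fgf8, whereas Mixl1, an endomesoderm homeobox gene, ranged from 14.8 to 33.8 over the 6 libraries and was not called.

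Endoderm genes were called mostly higher in Stag2-KO, and their median level was below wild type in both knockouts. Of 18, 9 were higher in Stag2-KO and 1 in Stag1-KO (55.6% called, median -0.60). The count of 1 was 4 without Stag2-KO replicate 1 and 2 with the block. The list's median level relative to wild type was -2.36, -2.91 and -2.95 in Stag1-KO and -1.78, -2.46 and -2.62 in Stag2-KO, so the groups overlapped, while each Stag1-KO library lay below the Stag2-KO library of its own replicate number. Cubn, an endocytic receptor of visceral endoderm, had 334, 141 and 178 in Stag1-KO and 1087, 641 and 522 in Stag2-KO with 5152, 4721 and 4660 in wild type (log2 fold change -1.79, SE 0.28, adjusted p = 0.000466). Pdgfra, a receptor of primitive endoderm, was at 56.1, 32.1 and 27.1 in Stag1-KO and 145, 95.9 and 82.3 in Stag2-KO with 538, 513 and 571, and the endocytic adaptor Dab2 at 188, 111 and 157 in Stag1-KO and 513, 385 and 376 in Stag2-KO with 1965, 1701 and 1761. Both fell in both knockouts and further in Stag1-KO. The lineage factor Gata4 was not called between the knockouts (adjusted p = 0.326). Gata6 and Sox17, 2.22-fold and 2.59-fold higher in Stag2-KO, were 1.38-fold and 1.67-fold without Stag2-KO replicate 1 and then not called (adjusted p = 0.368 and 0.187). Both calls were also lost without Stag1-KO libraries, that of Gata6 without replicate 2 or 3 (adjusted p of at least 0.157) and that of Sox17 without replicate 1 (adjusted p = 0.102).

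Ligands and receptors of other pathways went in both directions. Of 30 FGF and ERK pathway genes, 7 were higher in Stag1-KO and 4 in Stag2-KO (36.7% called). The receptor Fgfr2 was at 569, 549 and 578 in Stag1-KO and 233, 236 and 258 in Stag2-KO with 189.8, 180.0 and 189 in wild type (2.33-fold between the knockouts, adjusted p = 0.000163), a rise in Stag1-KO. Fgfr4 was at 70.9, 94.4 and 90.4 in Stag1-KO and 44.4, 26.9 and 42.2 in Stag2-KO with 103, 112 and 164, a fall in both knockouts that was deeper in Stag2-KO (2.25-fold, adjusted p = 0.00297). The ERK phosphatase Dusp4 was 2.04-fold higher in Stag1-KO. Of the ligands, Fgf5 and Fgf8 were higher in Stag2-KO. Fgf4, named after its values were seen (1.35-fold, adjusted p = 0.0186), and Fgf18 (2.08-fold, adjusted p = 0.0349, with the call lost in 3 of 6 fits without a library) were higher in Stag1-KO, while Fgf1 and Fgf3 were not called (adjusted p = 0.246 and 0.638).

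Of 29 Nodal, activin and BMP pathway genes, 5 were higher in Stag1-KO and 4 in Stag2-KO (31.0% called). The count of 5 was 3 without any 1 of the Stag1-KO libraries or Stag2-KO replicate 3. Genes of the BMP branch were called in both directions. Bmp4 had 754, 644 and 533 in Stag1-KO and 228, 163 and 149 in Stag2-KO with 318, 438 and 263 in wild type (log2 fold change 1.84, SE 0.29, adjusted p = 0.000382), Bmp8b was at 303, 301 and 233 in Stag1-KO and 63.5, 45.3 and 48.6 in Stag2-KO (5.31-fold, adjusted p = 7.83e-06), and Id2, a BMP target, at 645, 692 and 788 in Stag1-KO and 332, 393 and 349.5 in Stag2-KO (1.98-fold, adjusted p = 0.00233), all higher in Stag1-KO. The receptor genes Bmpr1b (3.13-fold, adjusted p = 0.00922) and Acvr1 (1.45-fold, adjusted p = 0.0473, with the call lost in 4 of 6 fits without a library), both named after their values were seen, were higher in Stag2-KO. Fst, which encodes the activin antagonist follistatin, was higher in Stag2-KO (5.84-fold, adjusted p = 8.93e-05). Nodal itself and its inhibitor Lefty1 were not called (adjusted p = 0.27 and 0.191).

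Of 18 Notch pathway genes, 5 were higher in Stag1-KO and 2 in Stag2-KO (38.9% called). The count of 5 was 3 without Stag1-KO replicate 2 or Stag2-KO replicate 1, and the count of 2 was 1 without any 1 of the Stag1-KO libraries and 5 with the block. The ligands were opposed, with Jag1 at 410.4, 449 and 396 in Stag1-KO and 659, 844 and 676 in Stag2-KO and higher in Stag2-KO (1.74-fold, adjusted p = 0.000182) and Jag2 at 1885, 1819 and 1855 in Stag1-KO and 1018, 1085 and 1120 in Stag2-KO and higher in Stag1-KO (1.73-fold, adjusted p = 8.93e-05). Rbpj, the DNA-binding factor of the pathway, was at 7981, 8900 and 7768 in Stag1-KO and 5210, 4276 and 4323 in Stag2-KO with 8401, 8131 and 6733 in wild type (1.78-fold between the knockouts, adjusted p = 8.93e-05), a fall in Stag2-KO. The receptor Notch4 was 1.78-fold higher in Stag1-KO.

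Of 60 axon guidance genes, 4 were higher in Stag1-KO and 13 in Stag2-KO (28.3% called, near the share of all genes without the block). Sema3a and Sema3d among the 13 passed the expression filter only through the Stag2 clone. The 54 members that passed through other libraries had a median of -0.07, against -0.19 over all 60. The count of 4 was 2 without Stag1-KO replicate 1 or 2 and 13 with the block. With the block 32 of the 60 were called, against 37.3% of all genes. Efnb2, an ephrin ligand, was at 323, 326 and 341 in Stag1-KO and 504, 804 and 692 in Stag2-KO with 236, 187 and 175 in wild type, a rise in both knockouts that was larger in Stag2-KO (2.02-fold, adjusted p = 0.000302). Ntn1, the guidance cue netrin, was 1.97-fold higher in Stag2-KO, at 872, 886 and 772 in Stag1-KO and 1429, 1999 and 1549 in Stag2-KO. Of 23 syndecans, glypicans and heparan sulfate enzymes, 6 were higher in Stag1-KO and 4 in Stag2-KO (43.5% called). The syndecans were opposed, with Sdc4 at 1833, 2103 and 1524 in Stag1-KO and 826, 914 and 749 in Stag2-KO (2.19-fold, adjusted p = 3.84e-05) and Sdc2 at 184, 180.1 and 196 in Stag1-KO and 281, 325 and 322 in Stag2-KO (1.66-fold, adjusted p = 0.0068), and the sulfatase gene Sulf1 was 1.89-fold higher in Stag2-KO.

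Imprinted genes, which are expressed from 1 parental allele, were called in both directions. Of 27, 6 were higher in each knockout (44.4% called). Igf2, a paternally expressed growth factor, had 3324, 3092 and 3192 in Stag1-KO and 666, 677 and 526 in Stag2-KO with 565, 817 and 709.5 in wild type (log2 fold change 2.36, SE 0.15, adjusted p = 1.89e-07). Its neighbour H19, a maternally expressed noncoding RNA that shares enhancers with Igf2, was at 161, 133 and 225 in Stag1-KO and 38.1, 51.7 and 24.3 in Stag2-KO with 176, 195 and 166 (log2 fold change 2.19, SE 0.28, adjusted p = 8.56e-05). Both were higher in Stag1-KO than in Stag2-KO, but Igf2 had risen in Stag1-KO (adjusted p = 1.86e-07) and H19 had fallen in Stag2-KO (adjusted p = 6.00e-05). Peg10, a retrotransposon-derived placental gene, was at 10100, 11797 and 9635 in Stag1-KO and 5603, 4543 and 3317 in Stag2-KO (2.34-fold, adjusted p = 0.000514). On the other side, Mest was at 335, 390.4 and 467 in Stag1-KO and 2518, 3735 and 4058 in Stag2-KO with 1799, 1557 and 1409 in wild type (log2 fold change -3.11, SE 0.17, adjusted p = 5.04e-08), and Ndn was 2.17-fold higher in Stag2-KO. The counts do not separate the alleles.

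Of 31 Polycomb subunits, 5 were higher in Stag1-KO and 8 in Stag2-KO (41.9% called), and the count of 5 was 3 without Stag2-KO replicate 3 and 8 with the block. Phf19, an accessory subunit of PRC2, was at 639.8, 585 and 484 in Stag1-KO and 209.5, 162 and 173 in Stag2-KO with 294, 368 and 369.7 in wild type (log2 fold change 1.65, SE 0.17, adjusted p = 9.21e-06), a rise in Stag1-KO and a fall in Stag2-KO. Subunits of PRC1 were called in both directions or not at all. Kdm2b was at 2242, 2183 and 2134 in Stag1-KO and 3289, 3214 and 3125 in Stag2-KO (1.47-fold, adjusted p = 0.000205), and Cbx2 and Bcor were 1.47-fold and 1.58-fold higher in Stag2-KO. Pcgf5 was 2.02-fold higher in Stag1-KO, as were Pcgf3 (1.20-fold) and Rybp (1.22-fold), both named after their values were seen, whose calls were lost in 4 and 2 of 6 fits without a library. The core PRC2 genes Ezh2 and Eed were not called (adjusted p = 0.134, or 0.0608 with the block, and 0.76). Of 18 germline and meiosis genes, 5 were higher in each knockout (55.6% called). The 5 higher in Stag1-KO were 3 without Stag2-KO replicate 2 or 3, and the 5 higher in Stag2-KO were 2 without Stag2-KO replicate 1 and 3 without Stag2-KO replicate 2 or any 1 of the Stag1-KO libraries. Rhox5 and Mov10l1, a piRNA helicase (1.48-fold), were higher in Stag1-KO, and Hormad1 (1.77-fold) and Tdrkh (1.76-fold) in Stag2-KO.

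Without the block, lists with fewer calls than the background included cohesin itself. Of 16 cohesin subunits and regulators 2 were higher in Stag1-KO (12.5% called), Stag2 and the meiotic paralogue Stag3, the latter at 1016, 923 and 936 in Stag1-KO and 726, 450.4 and 652 in Stag2-KO with 1105, 1170 and 1622 in wild type (1.57-fold, adjusted p = 0.0105). The ring subunits Smc1a, Smc3 and Rad21 were not called (adjusted p = 0.454, 0.756 and 0.538), with log2 differences of 0.08, 0.05 and 0.06 and SEs of 0.0720, 0.0915 and 0.0667. With the block, or without Stag2-KO replicate 3, 1 member of the list was higher in Stag2-KO. Called shares were 3.33% of 30 ribosome biogenesis genes, 8.70% of 23 clustered protocadherins, 10.0% of 20 antigen presentation and interferon genes, 17.6% of 34 DNA replication genes, 18.2% of 22 p53 genes, 21.7% of 23 lysosome and autophagy genes, 22.2% of 27 integrated stress response and serine metabolism genes, and 23.8% of 21 mitosis genes. With the block, 15 of 34 DNA replication genes, 9 of 23 lysosome and autophagy genes and 8 of 21 mitosis genes were called. Their shares were then above the 37.3% of all genes called with the block. Calls in the lists of this group were few without the block and moved with single libraries. The 5 lysosome and autophagy genes higher in Stag1-KO were 2 without replicate 2 of either knockout and 3 without Stag2-KO replicate 3, and the 4 mitosis genes higher in Stag1-KO were 1 without Stag1-KO replicate 2, 2 without Stag2-KO replicate 3 and 7 with the block. The 4 DNA replication genes higher in Stag2-KO were 8 without Stag1-KO replicate 1, 7 without Stag1-KO replicate 3 and 12 with the block. In the other lists of this group a direction held at most 4 calls, at most 5 in any fit without a library and at most 6 with the block. Top2a, the DNA topoisomerase of mitotic chromosomes, was 1.33-fold higher in Stag1-KO, and the nucleotide synthesis enzyme Tyms 1.49-fold higher in Stag2-KO. Of 80 cytosolic ribosomal protein genes, 9 were higher in Stag2-KO and none in Stag1-KO (11.2% called). The count of 9 was 4 without Stag1-KO replicate 2, 5 without Stag2-KO replicate 1, 31 without Stag1-KO replicate 3 and 27 with the block. With the block 19.2% of all genes were higher in Stag2-KO.

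Genes moved in opposite directions from wild type were few. Against WT siGLO, 88 genes rose in Stag1-KO and fell in Stag2-KO and 43 fell in Stag1-KO and rose in Stag2-KO, and all 131 were also called in the direct comparison, which uses the same libraries. The fit with the block gave 218 and 98. They also depend on the wild-type libraries that both comparisons share, since leaving out WT siGLO replicate 2 gave 32 and 14 genes, and leaving out any of the 3 gave 32 to 53 and 14 to 23. Among the 88, the median log2 fold change against wild type was 0.55 in Stag1-KO and -0.54 in Stag2-KO, and 4 had log2 changes of more than 1 in both. Among the 43, the medians were -0.74 and 0.56, and 10 moved by more than 1 in both.

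Among the genes that rose in Stag1-KO and fell in Stag2-KO, the largest direct differences included those of Wnt7b, Krt7, AU015836, Krt17, Synpo, Nup62cl, Tgm1, Khdc3 and Zbtb32. Krt17 rose by 0.88 in Stag1-KO (adjusted p = 0.0101) and had a log2 fold change of -1.53 in Stag2-KO (adjusted p = 0.000221). Tgm1, a transglutaminase of epidermal barrier, was at 1756, 1539 and 1135 in Stag1-KO and 506, 362 and 270.3 in Stag2-KO and 982, 1066 and 778 in wild type, and Khdc3, a component of the maternal subcortical complex, at 1542, 1148 and 1292 in Stag1-KO and 379, 251 and 404 in Stag2-KO and 724, 795 and 748. Nup62cl, an X-linked relative of a nucleoporin gene, was at 831, 978 and 1049 in Stag1-KO and 254, 233 and 239 in Stag2-KO around 449, 599.9 and 498. At Tgm1, Khdc3 and Nup62cl the 3 genotypes did not overlap. Keratin 7, keratin 17 and transglutaminase 1 are products of epithelia.

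Of the 43 that fell in Stag1-KO and rose in Stag2-KO, the 10 with the largest direct differences at a mean normalised count of at least 50 were Skida1, Mest, Fst, Cdk5r2, 1700097N02Rik, Efhd1, Sall3, Foxr2, Vim and Eid1. Mest had log2 fold changes of -1.997 (adjusted p = 1.19e-06) and 1.11 (adjusted p = 0.000158). Skida1 was at 18.7, 11.7 and 20.8 in Stag1-KO and 85.7, 183 and 274 in Stag2-KO with 79.5, 72.2 and 66.8 in wild type, and Fst at 19.7, 14.6 and 18.1 in Stag1-KO and 64.5, 125 and 118 in Stag2-KO with 77.6, 40.7 and 46.5, where wild type overlapped Stag2-KO. Vim was at 3385, 2669 and 2761 in wild type, between the counts of the knockouts given above. Cdk5r2, an activator of the neuronal kinase CDK5, was at 66.9, 39.9 and 61.5 in Stag1-KO and 168, 288 and 496 in Stag2-KO with 128, 150.5 and 147, and Eid1, an inhibitor of EP300, at 99.4, 115 and 146 in Stag1-KO and 342, 404 and 437 in Stag2-KO with 270.2, 223 and 223.

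**Figure D4:**
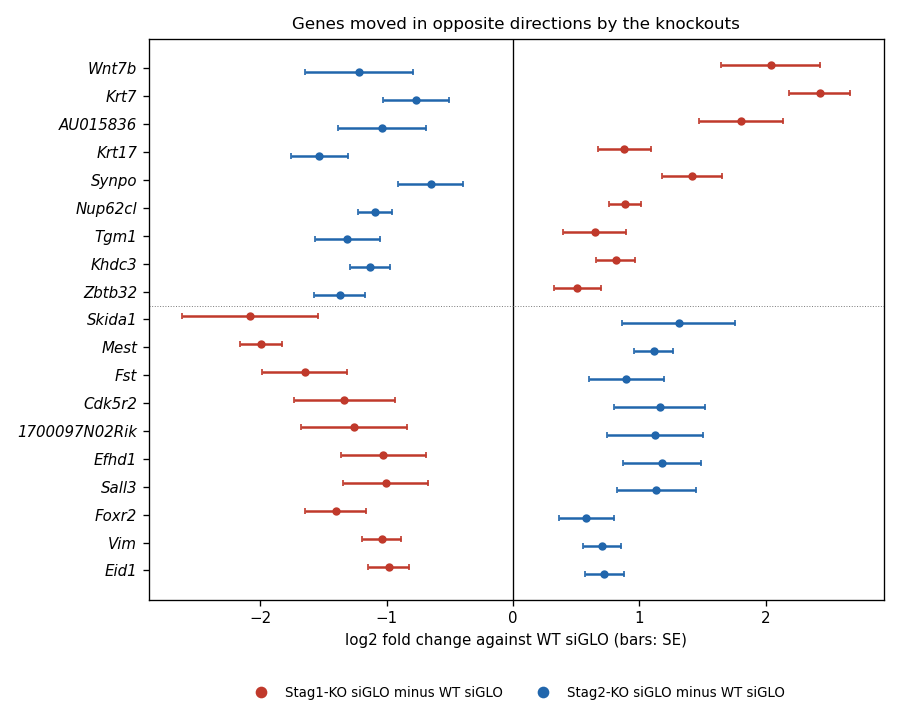
Log2 fold change against WT siGLO (points) with its SE (bars) in Stag1-KO siGLO and Stag2-KO siGLO, for genes among the 10 in each direction with the largest direct difference of those moved in opposite directions. Krt7 and Wnt7b lie furthest to the right in Stag1-KO, and Mest has narrow bars on either side of 0.

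Libraries outside these comparisons gave a reading of the Stag2 side. Between Stag2-KO siStag1 and WT siStag1, which come from the same Stag2 clone and the same wild type after depletion of STAG1 in both, 19.4% of genes tested were higher in Stag2-KO siStag1 and 18.1% lower. Of the 88 genes that had fallen in Stag2-KO siGLO, 85 had a log2 fold change below 0, 66 were called lower and 0 called higher (median -0.61). Of the 43 that had risen, 41 were above 0, 30 were called higher and 0 called lower (median 0.52). The other two of the 43, both below 0, were Fst, with a log2 fold change of -0.08 (adjusted p = 0.893), and 1700097N02Rik, with -0.82 (adjusted p = 0.128). Krt7, of the 88, was close to 0, at 70.0, 68.7 and 51.6 in Stag2-KO siStag1 and 59.4, 72.7 and 72.5 in WT siStag1 (log2 fold change -0.11, adjusted p = 0.79). No library of the series reads the Stag1 clone a second time.

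Calls were found on each of chromosomes 1 to 19 and X. On the X chromosome 33.3% of genes tested were called, 126 higher in Stag2-KO and 47 higher in Stag1-KO, with a median log2 fold change of -0.17. On chromosome 15, a run of 40 consecutive tested genes from Txn2 to Dmc1 (mm10, positions 77915047 to 79605109), whose ends were chosen after the values were seen, had 27 genes higher in Stag2-KO and none in Stag1-KO. Its median was -0.75 in the direct comparison, -0.78 in Stag1-KO against WT siGLO and 0.03 in Stag2-KO against WT siGLO, and 38 of the 40 genes were below wild type in Stag1-KO. The 20 tested genes before it had a direct median of -0.05 and the 20 after it of 0.16. Of the 3722 calls, 3359 lay outside chromosomes 8 and 15. Chromosome 8 was lower than wild type in both knockouts, with medians of -0.19 and -0.21, and had a direct median of 0.02. The other blocks of 50 genes with a median beyond 0.25 were X:111569931-136803364, with 16 genes higher in Stag2-KO and 3 in Stag1-KO, and 6:47453398-53700376, which holds the Hoxa cluster, with 21 and 1. Hoxa2, Hoxa3, Hoxa5 and Hoxa7 passed the expression filter only through the Stag2 clone. The count and median of the chromosome 6 block are therefore a description.

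**Figure D5:**
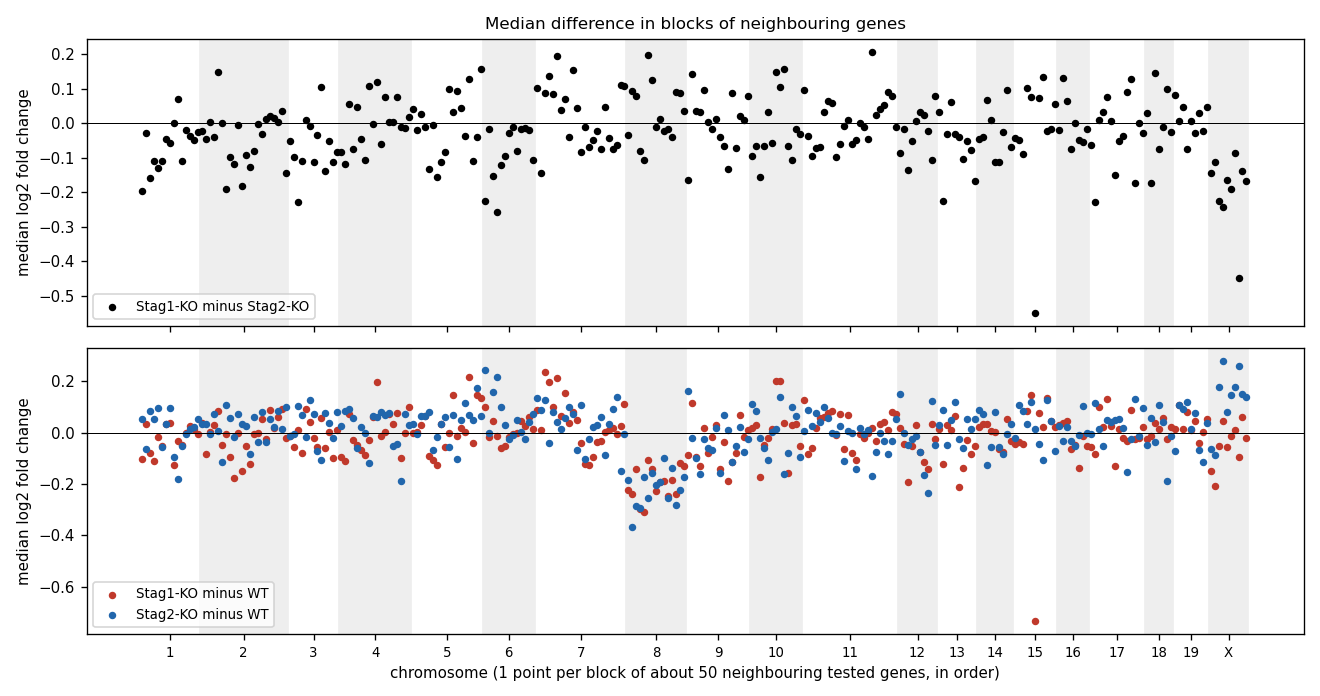
Median log2 fold change of Stag1-KO siGLO minus Stag2-KO siGLO in blocks of 50 consecutive tested genes, in genome order by chromosome. Of 278 blocks 3 have an absolute median above 0.25, a block of chromosome 15 at -0.55, a block of the X chromosome at -0.45 and a block of chromosome 6 at -0.26. The block of chromosome 6 holds Hox genes that passed the expression filter only through the Stag2 clone.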

How the data were processed

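PolyA RNA was sequenced by the authors as 150 bp paired-end reads in 15 libraries, 5 groups of 3. They aligned the reads with STAR to mm10 and deposited raw counts per gene symbol, 23412 genes without normalisation; the counting tool, annotation and strand setting are not given in the sources used here, so counts of overlapping or near-identical genes are uncertain. Lines for unmapped, multimapping, ambiguous and featureless reads were left out.

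The counts were tested with edgeR 4.0.16 in R 4.3.3 (filterByExpr by group, minimum count 10 and minimum total 15; TMM; glmQLFit over all 15 libraries with 1 coefficient per group; two-sided glmQLFTest; Benjamini-Hochberg adjustment over 14508 genes, threshold 0.1). Log2 fold changes are Stag1-KO minus Stag2-KO unless stated, and SE is the log2 fold change divided by the square root of F. Normalised counts are counts over TMM-scaled library size at a common depth. The groups and 34 gene lists were taken from the labels and from background knowledge, and members and lists were chosen with earlier results of these data known. Named genes were the 12 largest differences in each direction (mean normalised count of at least 50 over the 6 libraries, no overlap), the 10 largest in each opposite class, the first 3 of each list and up to 6 of its called members, unless said otherwise; some genes that these rules name are not reported here. Same-numbered libraries correlated in their deviations from the group means (r 0.277 to 0.361 over 3 pairs and 10426 genes, against a mean of -0.157 over 6 other pairs), so the replicate number, taken from the labels, was also fitted as a block. The floor of 3 counts covers counting error only, whereas SEs and SDs include the spread between libraries. The test was checked on simulated data. Of the genes listed, 23022 were placed on mm10 with GENCODE M21, and promoter sequences are RefSeq's on GRCm38.p6. Alternatives were DESeq2 1.42.0, its size factors, library size alone, other filters, other sets of libraries, an adjusted p below 0.05, exclusion of chromosomes 8 and 15, and each library left out. The fits on the 9 siGLO libraries and on the block with only the libraries compared were chosen after seeing the data. Figures were drawn with matplotlib 3.10.9.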

Additional observations from a re-analysis of the deposited data

How the results depend on the processing

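The 3722 direct calls became 2406 when only the 6 libraries compared were fitted, with 1020 higher in Stag2-KO, so that 57.6% of calls were then higher in Stag1-KO against 49.5%; with library size alone as scaling the count was 3729 and the share 45.9%. At an adjusted p below 0.05, 1238 genes were higher in Stag2-KO. Genes moved in opposite directions numbered 218 and 98 with the replicate block, 40 and 19 at an adjusted p below 0.05, and 26 in the second class with only the libraries compared; the causes were not tested, apart from fewer libraries or a stricter threshold by construction. Over the fits that left out 1 library, the direct calls ranged from 2539 to 3522, those higher in Stag1-KO from 1340 to 1766, those higher in Stag2-KO from 1199 to 1756, the opposite classes from 32 to 106 and from 14 to 53, and the calls between Stag2-KO siStag1 and WT siStag1 from 4237 to 5324. The lowest direct count came without Stag1-KO replicate 2. DESeq2 called 3851 genes, its size factors 3705, no filter 3367, at least 10 counts in every library 3252, the 9 siGLO libraries 3073, the block with only the libraries compared 3725, the replicate block 5416 and the genes outside chromosomes 8 and 15 3340. Of the 3722 calls 1860 were kept in every fit without 1 library, and no call changed sign in any fit. Of 249 named genes 181 kept their side of the threshold in every fit, and none reversed. The pairing changed no other call in the text than those given beside their results. At genes with at most 3 counts per library in a knockout, such as Hoxa2, depth allows only a lower bound of the fold.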

Other observations

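The ribosomal protein gene Rpl22 and its paralogue Rpl22l1, which encode alternative components of the large ribosomal subunit, moved in opposite directions between the knockouts. Rpl22 had normalised counts of 3678, 3376 and 4806 in Stag1-KO and 8520, 7879 and 8189 in Stag2-KO, with 6569, 6572 and 6917 in WT siGLO, and the log2 difference was -1.05 (SE 0.120, edgeR adjusted p = 2.91e-05). Rpl22l1, named after its values were seen, was at 3015, 3509 and 4617 in Stag1-KO and 1542, 1331 and 1513 in Stag2-KO, with 2464, 2241 and 2442 in WT siGLO, and the log2 difference was 1.34 (SE 0.126, edgeR adjusted p = 5.72e-06). Both genes moved against wild type in both knockouts. In Stag1-KO, the change on the log2 scale was -0.76 for Rpl22 (adjusted p = 0.000493) and 0.64 for Rpl22l1 (adjusted p = 0.00234). In Stag2-KO, the values were 0.29 (adjusted p = 0.0926) and -0.70 (adjusted p = 0.00105). Between Stag2-KO siStag1 and WT siStag1, Rpl22l1 was at -0.88 (adjusted p = 8.22e-05) and Rpl22 at 0.10, which did not pass the test (adjusted p = 0.58). The ribosomal protein genes as a list had 11.2% called.

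The list of integrated stress response and serine metabolism genes had 22.2% called, below the share of all genes, and single members of it differed in both directions. Gldc, the glycine decarboxylase, had 9865, 9754 and 8370 in Stag1-KO and 6420, 5721 and 5040 in Stag2-KO, with 5224, 5698 and 5287 in WT siGLO (1.63-fold, adjusted p = 0.000292), a rise in Stag1-KO. Gcat, which breaks threonine down to glycine, was at 668, 669.8 and 577 in Stag1-KO and 819, 1005 and 904 in Stag2-KO with 1137, 1153 and 1122 in WT siGLO (1.43-fold, adjusted p = 0.00184), and it lies in the chromosome 15 run that was low in Stag1-KO. Tdh, the threonine dehydrogenase before it in the pathway, was 1.40-fold higher in Stag2-KO (adjusted p = 0.0525) and lost the call in 4 of 6 fits without a library. Slc7a3, a cationic amino acid transporter, was at 2913, 2099 and 2464 in Stag1-KO and 4671, 3948 and 3617 in Stag2-KO (1.64-fold, adjusted p = 0.00921) and Sqstm1, an autophagy receptor from another list, at 4112, 4454 and 4180 in Stag1-KO and 3068, 3175 and 3145 in Stag2-KO (1.36-fold, adjusted p = 0.000623), the first higher in Stag2-KO and the second in Stag1-KO.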
